A study of Mus musculus with 8 samples.

Results

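Of the 1881 mouse miRNAs on the array, 7 are known from the blood lineages and are described here, chosen by name: both arms of miR-142a, both arms of miR-223, miR-150-5p and both arms of miR-342. The kidneys came from 4 male Akita samples (strain label C57BL/6-Ins2Akita/J) and 4 male control samples (C57BL/6J, called Mock in the titles), all labelled with an age of 36 without a unit, and each sample was hybridised to 1 array. The Akita allele is a germline change in Ins2 that yields misfolded insulin, injures the beta cells of the pancreas and leaves the mice diabetic. The labels do not state zygosity, blood glucose, perfusion of the kidneys or what Mock refers to. They also do not state that each sample is a separate mouse, and the p-values then measure only how these samples vary, which may be technical. Akita kidneys and control kidneys below are names for these samples.

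MicroRNAs are cut from a hairpin whose 2 arms can each give a mature strand, and the seed near the 5′ end of that strand selects the mRNAs it represses. MiR-142 is made in nearly all cells of haematopoietic origin and in few others, which makes it a common label of leukocytes in a solid tissue. MiR-223 is abundant in neutrophils and monocytes, miR-150 accumulates in mature B, T and natural killer cells and represses the transcription factor Myb, and miR-342 lies in an intron of Evl, a gene for an actin regulator, and is found in several lymphoid and myeloid cells. In a whole kidney these cells reside in the interstitium or circulate in the vessels.

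Mature sequences were found for 6 of the 7 members in RefSeq tables of build GRCm38.p6 and are shown because the array reads each arm separately. They are written 5′ to 3′ with the seed, bases 2 to 8, in capitals.
mmu-miR-142a-3p: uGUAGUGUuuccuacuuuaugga
mmu-miR-142a-5p: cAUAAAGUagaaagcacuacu
mmu-miR-223-3p: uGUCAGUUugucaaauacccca
mmu-miR-223-5p: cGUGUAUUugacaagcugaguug
mmu-miR-342-3p: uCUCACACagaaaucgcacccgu
mmu-miR-342-5p: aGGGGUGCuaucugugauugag
The 6 seeds were all different, and 0 other mouse miRNAs in the table shared any of them, so these miRNAs form no seed family. MiR-142a-3p lies at chr11:87756903-87756925 and miR-142a-5p at chr11:87756867-87756887, both on the plus strand. MiR-223-3p lies at chrX:96242884-96242905 inside the long non-coding gene F630028O10Rik, and miR-342-3p at chr12:108658680-108658702 inside Evl, also on the plus strand. Mir142 lies between Supt4a and Tspoap1.

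The Mir142 hairpin is the one whose arms were both measurable, and it is shown with both arms in capitals, the 5p arm first. It spans chr11:87756864-87756927 on the plus strand of GRCm38.p6.
Mir142: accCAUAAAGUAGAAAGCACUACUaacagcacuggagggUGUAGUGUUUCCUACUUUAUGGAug
Its arms are read by different probes, and the longer probe for each arm is printed here as DNA.
probe for miR-142a-3p: tccataaagtaggaaacactaca
probe for miR-142a-5p: agtagtgctttctacttta
The first pairs with bases 1 to 23 of miR-142a-3p and the second with bases 3 to 21 of miR-142a-5p. No other mature mouse miRNA in the table holds the full target of either probe, nor that of any of the 17 probes of the members. The probes for miR-142b, a miRNA annotated on the opposite strand at the same place, read the complement of miR-142a-3p and were not well above background on any array, with scaled signals between -3.14 and 0.803.

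The scaled signal of a miRNA is the sum of its probes after division by a factor per array, the 75th percentile of the probes above background on all 8 arrays, and levels below are its log2. No sum was allowed to go under a floor of 23.65, which is 4.56 in log2. A miRNA was tested if it stood well above background throughout 1 group or both, which 285 miRNAs did. Of the 7 members, 5 were above background on all 8 arrays and were tested, and 2, the arms miR-223-5p and miR-342-5p, were below background on all 8. Levels of different miRNAs are read by different probes and are not compared with each other. Before scaling, the 75th percentile ran from 368.8 to 446.2 in Akita arrays and from 495.4 to 520.1 in control arrays. The Akita arrays filled row 2 of the slide and the control arrays row 1, and the effects of row and of group cannot be told apart. Of the 7 miRNAs listed for the tubular epithelium 6 were tested, and the kidney miRNA miR-192-5p stood between 11.85 and 12.27 in Akita kidneys and between 11.88 and 12.14 in control kidneys.

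Blood-lineage miRNAs were lower in Akita kidneys. Of the 5 tested members 4 fell past the adjusted threshold of 0.05 and none rose, where 6.32% of all tested miRNAs fell, 8.42% rose and 14.7% were called in either direction. That split, 18 lower and 24 higher, turned with single arrays: it was 25 lower and 8 higher without Akita replicate 4 and 27 lower and 10 higher without control replicate 4. In the same 4 members all Akita values lay below all control values, which held for 9.12% of all tested miRNAs, while 13.7% had all Akita values above all control values. The median log2 fold change of the 5 members was -0.54, beside 0.06 for all tested miRNAs. In whole-kidney RNA, fewer leukocytes and less of these miRNAs per leukocyte cannot be told apart. That the signal came from leukocytes was not tested, and the effect of slide row cannot be told apart from that of group.

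**Figure D1:**
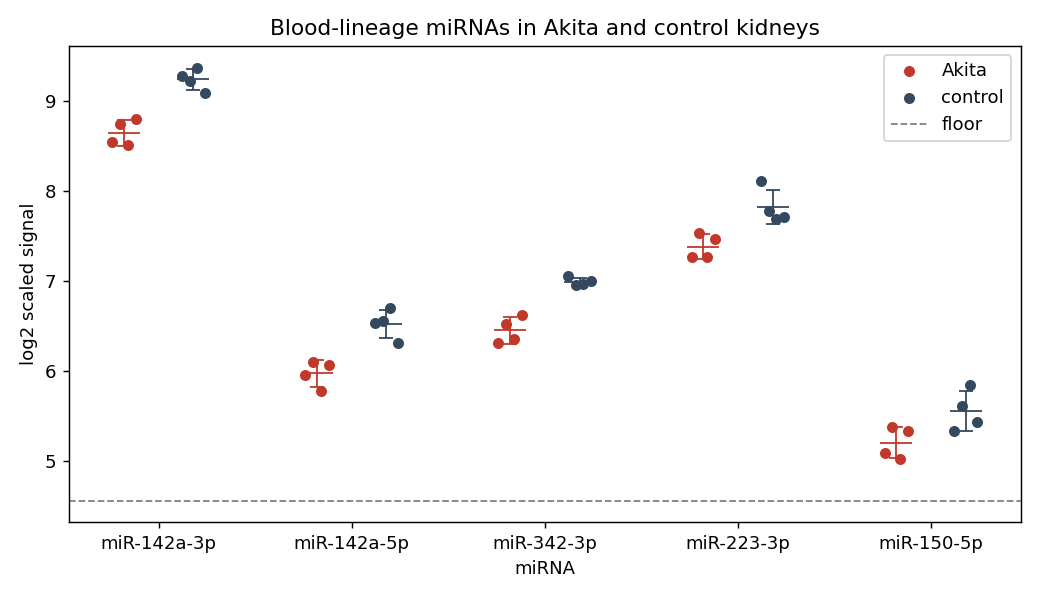
Log2 scaled signal (vertical axis) of the 5 measured members in 4 Akita and 4 control kidney samples. Points are arrays, horizontal bars with whiskers are the mean ± SD, and the dashed line is the floor at 4.56. The Akita points of miR-142a-3p, miR-142a-5p, miR-342-3p and miR-223-3p all sit below the control points, and those of miR-150-5p overlap them.

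The strand mmu-miR-142a-3p, from the pan-leukocyte hairpin, had log2 signals of 8.54, 8.74, 8.51 and 8.80 in Akita kidneys, against 9.27, 9.22, 9.37 and 9.09 in control kidneys. The highest Akita kidney lay 0.29 below the lowest control kidney. The Akita mean was 8.65 ± 0.14 and the control mean 9.24 ± 0.12 (SD, n = 4 each), a log2 fold change of -0.59 ± 0.09 SE, or 33.5% less signal (limma, adjusted p = 0.0051). It was the 10th largest fall among the 285 tested miRNAs and the 7th by p-value. The change was the same with either of its probes, -0.59 for the 23-base probe and -0.59 for the 22-base probe, and the spots of a probe varied by 3.2% to 7.54% within an array (coefficient of variation).

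The strand mmu-miR-142a-5p, from the other arm, had log2 signals of 5.96, 6.11, 5.78 and 6.07 in Akita kidneys, against 6.53, 6.55, 6.70 and 6.32 in control kidneys, again without overlap. The log2 fold change was -0.55 ± 0.10 SE, or 31.7% less signal (limma, adjusted p = 0.0091). Its spots varied by up to 19.98% within an array. The 18-base probe gave a log2 fold change of -0.60 and the 19-base probe one of -0.50.

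The balance between the arms of miR-142a did not differ detectably between the groups. The 3p minus 5p difference is a ratio within an array, which a single factor per array cannot move. It was 2.59, 2.64, 2.73 and 2.73 log2 units in Akita kidneys and 2.74, 2.67, 2.67 and 2.77 in control kidneys. The difference was not recomputed under quantile normalization or cyclic loess, which can move it. The groups overlapped, and the difference of their means was -0.04, with a 95% interval from -0.15 to 0.07 (exact two-sided permutation test, p = 0.37, n = 4 each). With normexp background correction, which adds an offset of 50 to every spot, the difference was -0.37 and passed the test (exact permutation p = 0.029). The log2 fold change was then -0.45 for miR-142a-3p and -0.07 for miR-142a-5p. The part of the offset in this difference was not tested. Because 2 probe sets read the arms, the size of the ratio is not a measure of how many molecules of each strand were present.

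The strand mmu-miR-342-3p, from the Evl intron, had log2 signals of 6.31, 6.52, 6.35 and 6.63 in Akita kidneys, against 7.05, 6.95, 6.96 and 7.00 in control kidneys. The control kidneys lay within a narrow range and the highest Akita kidney was 0.33 below the lowest of them, the widest gap among the 5 members. The Akita mean was 6.45 ± 0.15 and the control mean 6.99 ± 0.05 (SD, n = 4 each), a log2 fold change of -0.54 ± 0.08 SE, or 31.2% less signal (limma, adjusted p = 0.0047). Its 17-base probe gave a log2 fold change of -0.59 and its 16-base probe, which lacks the base at the 5′ end of the target, one of -0.48.

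The granulocyte and monocyte miRNA mmu-miR-223-3p had log2 signals of 7.27, 7.54, 7.26 and 7.46 in Akita kidneys, against 8.11, 7.78, 7.69 and 7.71 in control kidneys. All Akita values were below all control values by at least 0.16, and control replicate 1 stood highest. The log2 fold change was -0.44 ± 0.11 SE, or 26.2% less signal (limma, adjusted p = 0.034). This call was the least secure of the 4: it was lost without Akita replicate 1 (-0.40, adjusted p = 0.075), without Akita replicate 3 (-0.40, adjusted p = 0.078) and without control replicate 2 (-0.46, adjusted p = 0.068).

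The miRNA of mature lymphocytes, mmu-miR-150-5p, had log2 signals of 5.09, 5.38, 5.03 and 5.33 in Akita kidneys, against 5.33, 5.62, 5.85 and 5.44 in control kidneys. The groups overlapped, through Akita replicate 2 at 5.38 and control replicate 1 at 5.33. The log2 fold change was -0.35 ± 0.13 SE with an interval from -0.64 to -0.07, and it missed the threshold after adjustment (limma, unadjusted p = 0.021, adjusted p = 0.090), where 34% of all tested miRNAs had an unadjusted p under 0.05. The signal stood close to the floor and summed 2 probes, of which only the one of 16 bases was above background. The other, of 15 bases, made up 25.9% of the mean level in Akita kidneys and 25.5% in control kidneys but was not well above background on any of the 8 arrays, with scaled signals from 7.58 to 10.7 in Akita and from 10.3 to 15.8 in control kidneys.

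**Figure D2:**
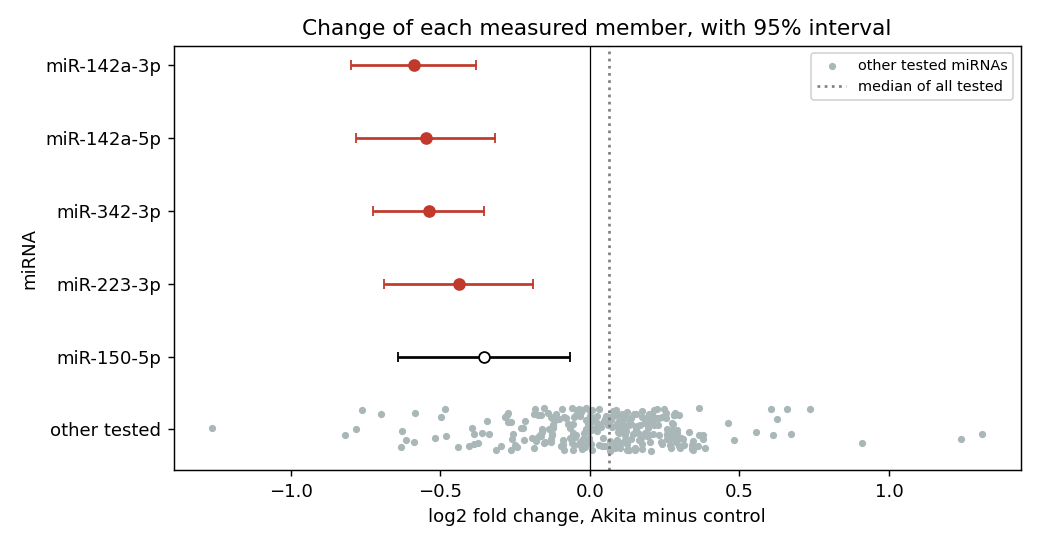
Log2 fold change, Akita minus control (horizontal axis), of the 5 measured members with its 95% interval, above the fold changes of the other tested miRNAs as grey points whose vertical scatter carries no value. Filled points have an adjusted p under 0.05; the members run from -0.59 to -0.35, left of the dotted median of all tested miRNAs at 0.06.

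Whether the members differed in the size of their change was tested on their ratios within each array, over all 10 pairs of the 5 measured members. After adjustment over the pairs, 0 passed the threshold, and 1 had an unadjusted exact permutation p under 0.05. With 4 arrays a group, no pair can pass this adjustment unless at least 6 of the 10 reach the smallest possible p, so the count of 0 does not show that the members changed alike. That pair was miR-142a-3p and miR-150-5p, whose ratio was lower in Akita by 0.24 on the log2 scale, that is a difference of -0.24 with a 95% interval from -0.47 to -0.01 (exact two-sided p = 0.029, the smallest that 4 against 4 can give, adjusted p = 0.29). For miR-223-3p against miR-150-5p, the myeloid against the lymphoid miRNA, the difference was -0.08 with an interval from -0.56 to 0.39 (exact two-sided p = 0.66, adjusted p = 0.73). The interval leaves room for unequal changes of either sign. That miR-223-3p was called and miR-150-5p was not does not show that they differed. The ratios were not recomputed under quantile normalization or cyclic loess, which can move them. With normexp 7 pairs passed, and the part of its offset was not tested. With the floor 4 times higher 6 passed, each including miR-142a-5p or miR-150-5p. That floor lies above miR-150-5p on all 8 arrays and above miR-142a-5p on all but control replicate 3. Pairs with miR-150-5p then only restate the other member. Neither count shows that the members changed unequally.

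Within the Akita group the members moved together after scaling: replicates 2 and 4 stood above replicates 1 and 3 for each of the 5 measured members. Replicate 4 had a scale factor of 0.80, against 0.94 to 0.97 in the other Akita arrays, and division by it raises all its miRNAs alike. Deviations of the members' mean from its group means correlated with those of the log2 75th percentile at r = -0.57 (Pearson, 8 arrays, a description). The part of the scaling in the Akita order was not tested. The control kidneys had no such common order. There miR-223-3p was highest in replicate 1 (8.11), the kidney in which miR-150-5p was lowest (5.33), and miR-150-5p was highest in replicate 3 (5.85), in which miR-223-3p was lowest (7.69). The mean of the 5 members ran from 6.58 to 6.86 in Akita kidneys and from 7.11 to 7.31 in control kidneys. As a description over 8 arrays that share the scaling step, deviations from the group means correlated most between the arms of miR-142a (Pearson r = 0.91) and least between miR-223-3p and miR-150-5p (r = -0.10).

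The arms mmu-miR-223-5p and mmu-miR-342-5p gave no measurable signal. The scaled signals of the 3 probes for miR-223-5p lay between -5.03 and 1.27 in Akita kidneys and between -3.88 and -0.206 in control kidneys. Those of the 4 probes for miR-342-5p lay between -3.6 and 3.25 in Akita kidneys and between -4.18 and 4.33 in control kidneys. The negative control spots of an array averaged between -0.122 and 3.68 with an SD between 2.99 and 4.45, so both arms stood in the range of spots that match no miRNA. Their probes have 15 to 19 bases, and the measured miR-342-3p was read by probes of 16 and 17 bases. A strand below background is not shown to be missing.

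Other miRNAs known from leukocytes moved the same way where they could be measured, and most could not. Of 8 such miRNAs outside the members, 2 were tested and both were called lower, where 6.32% of all tested miRNAs fell. These 8 were listed with earlier results of these data known. MiR-155-5p, induced in activated lymphocytes and macrophages, stood at 5.52, 5.52, 5.52 and 5.46 in Akita kidneys and at 6.17, 6.15, 6.15 and 6.00 in control kidneys (log2 fold change -0.61, limma adjusted p = 0.00067). MiR-146a-5p, an NF-kappaB target that dampens innate immune signalling, had the larger change of -1.26 (limma adjusted p = 0.00073). Both are also made by cells that are not leukocytes. The remaining 6 (miR-155-3p, miR-146b-5p, miR-147-3p, miR-511-3p, miR-511-5p and miR-150-3p) were below background on all 8 arrays. The summed signal of the tested pair ran from 218.8 to 240.8 in Akita kidneys and from 444.3 to 678.5 in control kidneys. In the miR-181 family, known from lymphocyte development, 3 miRNAs were above background on all 8 arrays, of which 2 fell and 0 rose, where 6.32% of all tested miRNAs fell. The one not called, miR-181a-5p, had a log2 fold change of -0.18 with overlapping groups (limma, adjusted p = 0.18). The remaining miRNA of the family, miR-181d-5p, was above background on 0 Akita arrays and on all 4 control arrays. It was thus tested only through the group in which it was higher, and its call is not counted.

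Few markers of the resident cells of the kidney were tested, and none was called lower, where 6.32% of all tested miRNAs fell. With so few tested, that count is near the share and does not set these markers apart. These lists too were drawn up with earlier results of these data known. The 2 tested endothelial miRNAs, the 2 of smooth muscle and the 3 of fibroblasts were not called, and their median changes in log2 were 0.13, -0.01 and 0.08. Of the 6 tested tubular miRNAs 1, miR-200c-3p, was called higher (log2 fold change 0.28, limma adjusted p = 0.032), where 8.42% of all tested miRNAs rose. The endothelial miR-126a-3p averaged 12.38 ± 0.15 in Akita kidneys and 12.25 ± 0.06 in control kidneys (SD, n = 4 each). These directions hold for this scaling: with no scaling the median of all tested miRNAs moved to -0.21, and it was -0.18 with the spike-in controls as reference.

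The miRNA miR-451a, abundant in red blood cells, had another pattern than the members. Its log2 signal was 9.31, 9.24, 9.59 and 9.18 in Akita kidneys, against 6.44, 8.60, 10.23 and 7.08 in control kidneys. The control kidneys spread widely on both sides of the Akita kidneys, and the difference of 1.24 ± 0.69 SE in log2 missed the threshold (limma, adjusted p = 0.24). It was the single tested miRNA among the 6 listed for erythrocytes, of which 5 are on the array, and miR-144-5p and both arms of miR-486a were below background on all 8 arrays. In the control kidneys miR-142a-3p stayed between 9.09 and 9.37 while miR-451a differed between them by several log2 units. Deviations of the members' mean from its group means correlated with those of miR-451a at r = 0.21 (Pearson, 8 arrays, a description). The part of residual blood in the change of the members was not tested.

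**Figure D3:**
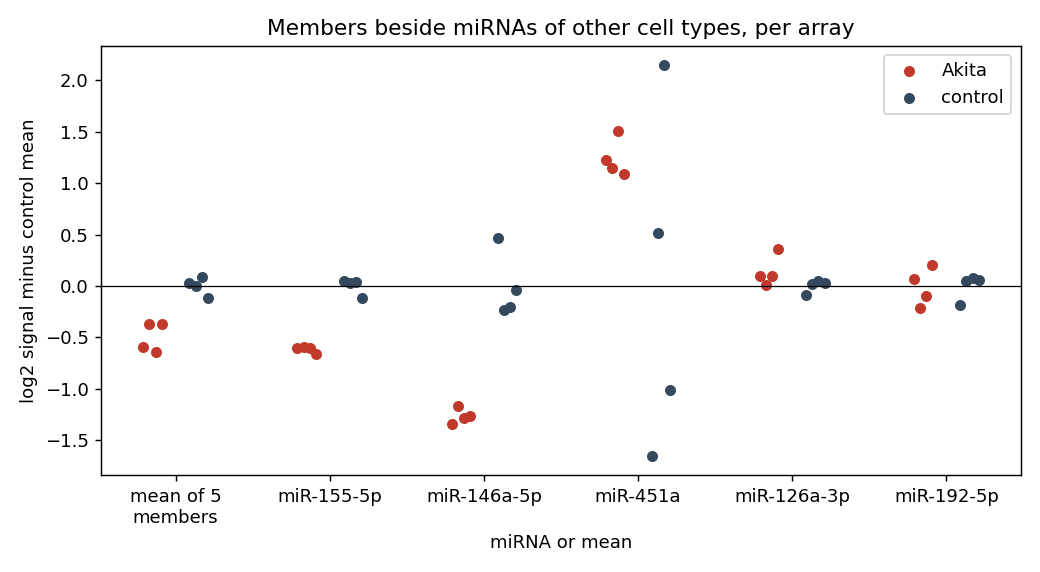
Log2 signal of each array minus the mean of the 4 control arrays (vertical axis) for the mean of the 5 members and for miRNAs of activated leukocytes (miR-155-5p, miR-146a-5p), erythrocytes (miR-451a), endothelium (miR-126a-3p) and tubules (miR-192-5p). Akita points lie below 0 for the members, miR-155-5p and miR-146a-5p, above 0 for miR-451a with control points spread on both sides, and around 0 for miR-192-5p.

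The miRNAs whose pattern over the 8 arrays was most like the mean of the 5 members were looked for among the 252 other tested miRNAs above background on every array. They were miR-181c-5p (Pearson r = 0.93), miR-155-5p (r = 0.93), miR-148a-3p (r = 0.92), miR-146a-5p (r = 0.90) and miR-125b-5p (r = 0.84). This measure includes the difference between the groups, and 4 of the 5 were called lower, with miR-125b-5p at -0.22 (limma, adjusted p = 0.059). MiR-148a-3p had a log2 fold change of -0.63 (limma, adjusted p = 0.034) with overlapping groups. Judged by deviations from the group means instead, the closest were miR-1224-5p (r = 0.94), miR-2137 (r = 0.94), miR-8117 (r = 0.90), miR-1897-3p (r = 0.89) and miR-6908-5p (r = 0.89), none of them called between the groups and all with log2 fold changes above 0.

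The scaling between arrays set the size of the change but not its sign. With no scaling the log2 fold change of miR-142a-3p was -0.86 and that of miR-342-3p -0.81, and with the spike-in controls as reference they were -0.83 and -0.78. All 5 tested members were then called lower, miR-150-5p included (-0.63 with an adjusted p = 0.0056, and -0.60 with an adjusted p = 0.0090, both from limma), but so were 36.5% and 33.3% of all tested miRNAs. The members' median stood 0.60 below the median of all tested miRNAs under each of these choices, since such a scaling shifts every miRNA alike. With the 75th percentile taken over all probes, most of which carry no signal, the log2 fold change of miR-142a-3p was -0.50 and none of the members was called (limma, adjusted p from 0.10 to 0.43). With normexp background correction, which adds an offset of 50 to every spot, the dim members lost most of their change: the log2 fold change was -0.45 for miR-142a-3p, still called (limma, adjusted p = 0.0012), but -0.19 for miR-223-3p (adjusted p = 0.063), -0.14 for miR-342-3p (adjusted p = 0.10) and -0.07 for miR-142a-5p (adjusted p = 0.38), which were not. With all 1881 miRNAs tested, most of them below background, 0 members were called, and their fold changes were the same as before.

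**Figure D4:**
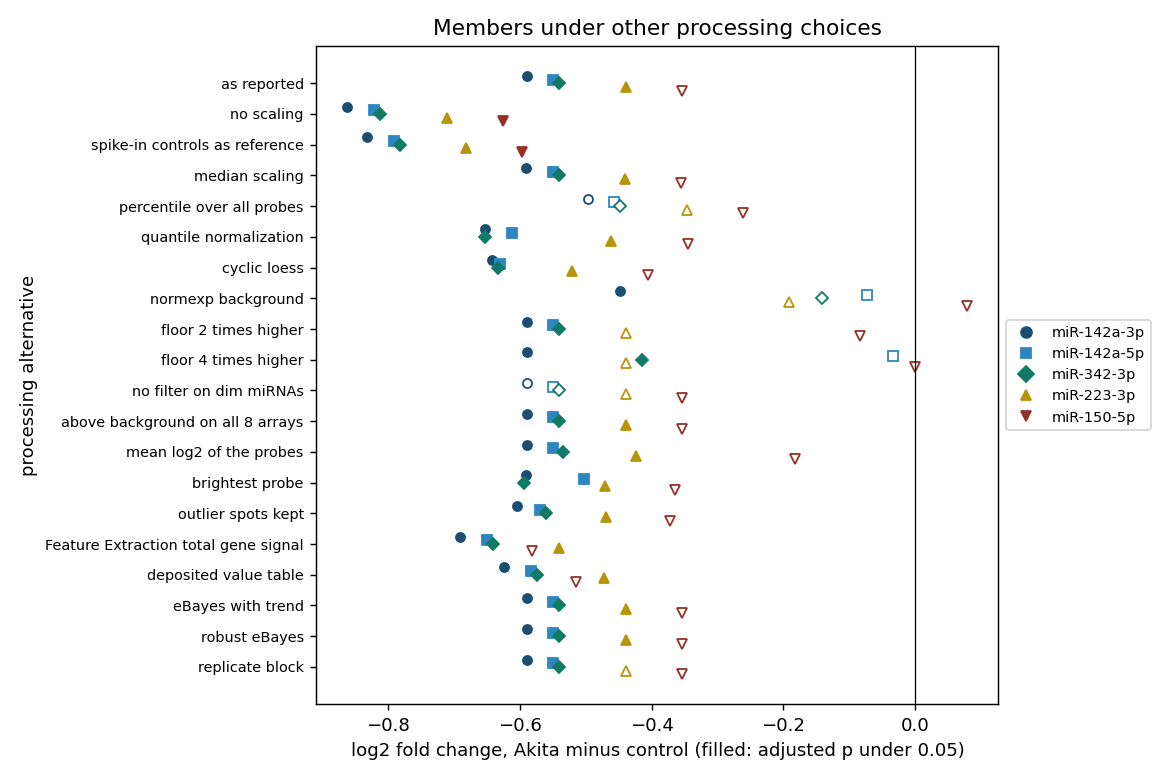
Log2 fold change, Akita minus control (horizontal axis), of the 5 measured members under each processing alternative that keeps all 8 arrays, with filled symbols for an adjusted p under 0.05. MiR-142a-3p runs from -0.86 to -0.45, and miR-150-5p is the one member with a value above 0, at 0.079 with normexp background correction.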

How the data were processed

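Total RNA of 8 kidney samples, 100 ng per labelling per the labels' protocols, was hybridised to one-colour Agilent miRNA arrays. The deposited scanner files hold the intensity of each spot on a linear scale, extracted with Agilent Feature Extraction 12.0.3.1 per the submitters' processing notes, with a fitted background surface subtracted and no normalization between arrays per the file headers. The deposited value table gives each miRNA on each array as a linear ratio, in a scale and with a centring that no label or header states; its column medians ran from 1.03 to 1.22 in Akita and from 0.70 to 0.97 in control arrays, and it served as an alternative.

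From these files, flagged outlier spots (2.03% to 3.02% of non-control spots per array) were dropped, spots were averaged per probe, and a probe counted as above background if at least 0.5 of its spots did. Saturation was flagged at 0 spots. Signals were scaled to the 75th percentile of those 451 probes that passed on every array, summed over the probes of a miRNA, floored at 23.65 and put in log2. The test was limma 3.58.1 (R 4.3.3) over 285 miRNAs (two-sided, Benjamini-Hochberg). Ratios between members were compared with exact permutation tests, and their 95% intervals use the pooled spread of both groups with 6 residual degrees of freedom. The limma step was run on simulated log2 values, and the permutation test was checked on a fixed set of numbers. The steps before them were not simulated. The labels do not say that replicate numbers pair the samples, and the main test did not use them as pairs. Arrays of the same number stood in the same column of the slide in both groups. The members, the lists and the rule for named miRNAs were chosen with earlier results of these data known. The rule names all 7 members, listed leukocyte miRNAs, 4 miRNAs of other cell types and the 5 most alike miRNAs by each of 2 measures. The number of arrays limits the precision.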

Additional observations from a re-analysis of the deposited data

How the results depend on the processing

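Over 27 alternatives, 8 of which left out 1 array each, miR-142a-3p, miR-142a-5p, miR-223-3p and miR-342-3p stayed lower in all 27 and were called in 25, 23, 18 and 24. MiR-150-5p was lower in 25 and called in 2, the unscaled and spike-in fits, stood at 0 with the floor 4 times higher and was reversed with normexp background correction (0.079). The called members numbered 0 under the all-probe percentile, 1 under normexp, 2 under a floor 4 times higher, 0 when dim miRNAs were not filtered (1881 tested), and 3 to 4 with 1 array left out. The number of calls over all miRNAs was 109 unscaled, 100 against the spike-ins, 14 under the all-probe percentile, 70 under cyclic loess, 89 under normexp, 9 under that floor, 6 unfiltered, 26 from Feature Extraction's total gene signal, and 18 to 37 with 1 array left out. The higher and lower calls, 24 and 18 as reported, were 5 and 104 unscaled, 5 and 95 against the spike-ins, 10 and 4 under the all-probe percentile, 29 and 41 under cyclic loess, 81 and 8 under normexp and 6 and 20 from the total gene signal. Single arrays turned this balance too: they were 9 and 11, 12 and 13, 10 and 11 and 8 and 25 without Akita replicates 1 to 4, and 18 and 14, 9 and 12, 6 and 12 and 10 and 27 without control replicates 1 to 4. The arm difference of miR-142a was -0.37 with normexp and -0.56 with the floor 4 times higher (exact permutation p = 0.029 for both), and from -0.06 to -0.01 with 1 array left out; that floor exceeds the 5p arm on every array but control replicate 3, and the cause under normexp was not tested. Of the 10 pairs, 7 passed with normexp and 6 with that floor, which does not show unequal change.

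Pair differences changed sign as follows, and causes beyond the raised floor were not tested. They were not recomputed under quantile normalization or cyclic loess. MiR-142a-3p minus miR-342-3p was 0.0044 with the brightest probe and 0.0041 without control replicate 3 (-0.10 to 0.0041 with 1 array left out). MiR-142a-5p minus miR-223-3p was 0.12 with normexp and 0.41 with the floor 4 times higher. MiR-142a-5p minus miR-342-3p was 0.068 with normexp, 0.38 with that floor, 0.092 with the brightest probe and between 0.015 and 0.058 without Akita replicates 3 or 4 (0.024 and 0.019) or control replicates 2 or 3 (-0.082 to 0.058 with 1 array left out). MiR-223-3p minus miR-150-5p was 0.041 with the total gene signal and with the deposited value table and 0.085 without control replicate 1 (-0.22 to 0.085 with 1 array left out). MiR-223-3p minus miR-342-3p was -0.051 with normexp and -0.025 with that floor.

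With the replicate block the calls numbered 25 (11 higher, 14 lower) and 3 members were called, miR-223-3p being lost (adjusted p = 0.061). Same-numbered samples did not deviate together over 257 miRNAs (correlations of 0.016, -0.36, 0.30 and -0.38). Only Akita replicate 3 correlated best with its own number, and no control replicate did.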
